A study of Mus musculus with 6 samples.

Results

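The CDK inhibitor genes are the 7 mouse genes Cdkn1a, Cdkn1b, Cdkn1c, Cdkn2a, Cdkn2b, Cdkn2c and Cdkn2d, which encode proteins that bind and block cyclin-dependent kinases (CDKs). They were found by symbol, and all 7 were among the 55536 genes of the deposited count table. Transcript levels were measured in CD4+ T cells of C57BL/6 mice with the 2D2 T cell receptor, which recognises a peptide of myelin oligodendrocyte glycoprotein (MOG). HDAC1-cKO cells had floxed Hdac1 alleles and Cre recombinase under the Cd4 promoter (2D2-Hdac1fl/fl-Cd4-Cre+), and WT cells had the same floxed alleles without Cre (2D2-Hdac1fl/fl-Cd4-Cre-). Naive donor cells went into recipients with the other CD45 allele, which were immunised in the footpad 18 hours later with the peptide in complete Freund's adjuvant, and 500 donor cells per library were sorted from the popliteal lymph nodes after 4 days. Each genotype had 3 libraries, each from 2 pooled mice. Cd4-Cre is known to act from the thymus onwards, in the CD8 lineage as well as in CD4+ cells. Neither ages nor a depletion of the recipients' own cells are given in the labels.

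Progress of a cell from G1 into S phase depends on D-type cyclins with CDK4 or CDK6 and on E-type cyclins with CDK2, which phosphorylate the retinoblastoma protein and its relatives and so free E2F transcription factors. The INK4 family (p16 from Cdkn2a, p15 from Cdkn2b, p18 from Cdkn2c and p19 from Cdkn2d) binds CDK4 and CDK6, while the CIP/KIP family (p21 from Cdkn1a, p27 from Cdkn1b and p57 from Cdkn1c) binds complexes of several CDKs with their cyclins. HDAC1 is a class I histone deacetylase, and Cdkn1a and Cdkn1c are known targets of repression by this class, and p27 and p18 are known for restraining T cell division. The comparison asked whether transcripts of these brakes differ in activated T cells that lack HDAC1.

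The libraries held 19956153 to 36307610 counts in HDAC1-cKO and 39036751 to 55900237 counts in WT, so every HDAC1-cKO library was shallower than every WT library. Levels are given as CPM (counts scaled to the library total) or as the FPKM the authors deposited, which also divide by transcript length. Hdac1, the deleted gene, stood at 8.35, 7.07 and 7.48 FPKM in HDAC1-cKO libraries 1, 2 and 3 and at 113, 114 and 119 FPKM in the WT ones, so each library matched its label. HDAC1-cKO held 6.63% of the WT level (log2 fold change -3.91 ± 0.12, SE, edgeR adjusted p = 9.59e-06). HDAC1-cKO replicate 2 stood apart in base composition. Its departures from the average library had a Pearson r of 0.54 with the GC content of 10890 genes, and the other 5 libraries had values of -0.25 to -0.05 (genes are not independent replicates). The T cell receptor gene Trac stood at 3281 to 3411 CPM in HDAC1-cKO and 3414 to 4215 CPM in WT. Cd4 stood at 138 to 239 CPM in HDAC1-cKO and 145 to 182 CPM in WT. Of 6 T cell markers, 5 had negative log2 differences and 1, Cd4, a positive one, with a median of -0.27. EdgeR called 0 of the 6, and in 3 all HDAC1-cKO libraries lay below all WT libraries, as in 11.8% of genes tested. Of markers of other cells, Csf1r, Flt3, Ncr1 and Pdgfra had 0 counts in every library, but other markers of the same lists were detected. Klrb1c ran from 0.686 to 3.38 CPM, and Pdgfrb from 0.401 to 2.11 CPM in HDAC1-cKO and 0 to 0.117 CPM in WT. The B cell gene Ighm ran from 54.0 to 231 CPM. Cd8b1 stood at 64.6 to 71.3 CPM in HDAC1-cKO and 45.0 to 57.0 CPM in WT, with Cd8a at most 2.54 CPM. The summed FPKM of 6 B cell markers was 81.0 to 172 in HDAC1-cKO and 41.4 to 90.6 in WT. That of 8 myeloid and dendritic cell markers was 4.26 to 8.21 and 6.25 to 21.7. For 5 stromal and endothelial markers it was 14.2 to 19.3 and 15.2 to 23.8. Pdgfrb made up at most 0.380 FPKM of that sum in HDAC1-cKO and 0.0211 in WT, so the sum does not follow Pdgfrb. For 4 CD8 T and NK cell markers the summed FPKM was 43.6 to 48.5 and 31.1 to 40.2. Whether such cells contributed to any difference below was not tested.

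None of the 7 CDK inhibitor genes passed the threshold in either direction. Of 15519 genes tested with edgeR's quasi-likelihood test, 0.979% were higher and 0.992% lower in HDAC1-cKO at a Benjamini-Hochberg adjusted p under 0.05, or 1.97% in either direction. Cdkn2a was too low to be tested, and among the 6 members tested 0 were higher and 0 lower. At an unadjusted p under 0.05 edgeR placed 1 member lower (Cdkn2d) and 0 higher, where 8.39% of all genes tested were lower and 8.62% higher. DESeq2 also called 0 members, where it called 5.05% of its genes higher and 4.76% lower, and it gave no adjusted p for Cdkn2b. Limma on log2(FPKM + 1) called 0 members, where it called 1.4% of genes higher and 1.27% lower. Limma-voom with sample weights called 0 higher and 1 lower, Cdkn2d, where it called 4.96% of genes higher and 5.28% lower. At an unadjusted p under 0.05 DESeq2 and limma-voom each placed 2 members lower and 0 higher. Limma on log2(FPKM + 1) placed 1 lower and 0 higher. The share of all genes at that threshold was not counted for these tools. The median log2 difference of the 6 tested members was -0.19, beside -0.00 over all genes tested. A p that misses the threshold does not show that the levels were equal, so the interval of each difference is given below. All differences are in bulk RNA, in which fewer cells with a transcript and less of it per cell cannot be told apart.

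**Figure D1:**
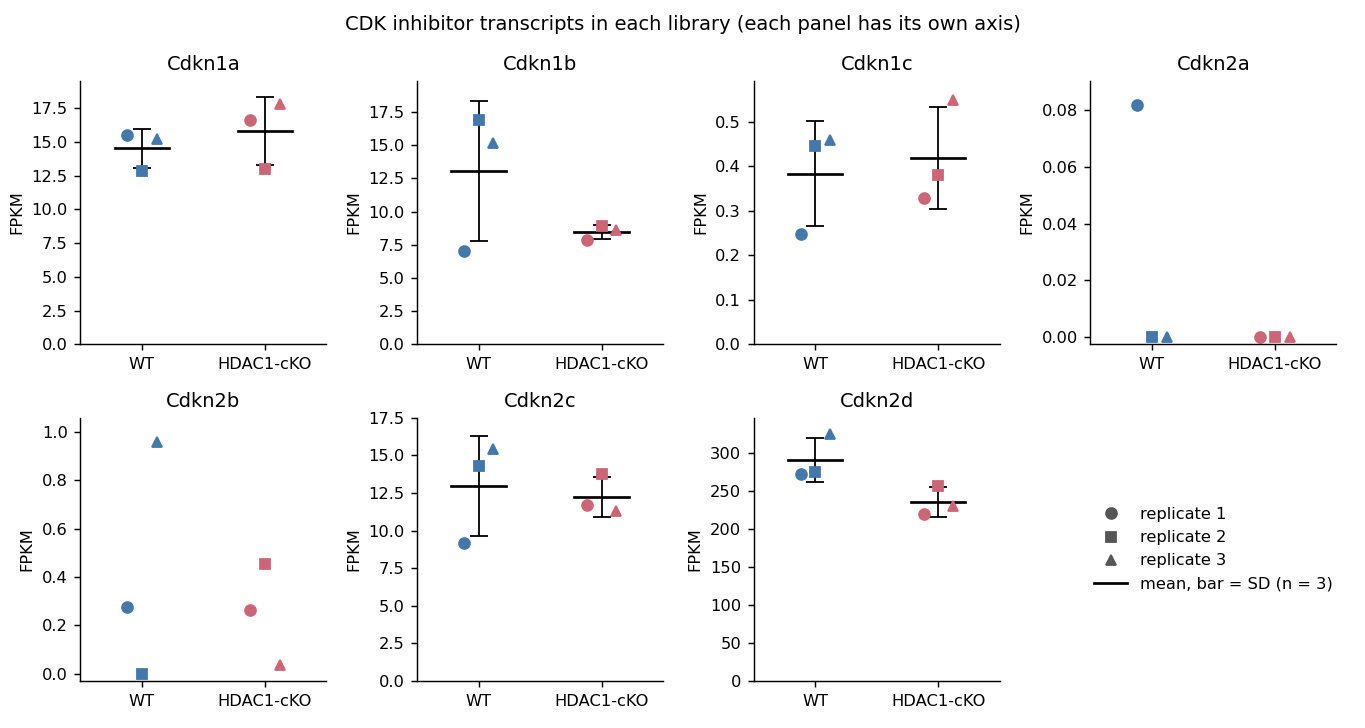
Deposited FPKM of each CDK inhibitor gene (y axis, from 0, a separate scale per panel) in WT and HDAC1-cKO libraries. Points are libraries, with shape for the replicate number. Lines are means and bars SD (n = 3 libraries per genotype), left out for Cdkn2a and Cdkn2b, which have libraries at 0. Cdkn2d stands at 219 to 324 FPKM, and its HDAC1-cKO libraries all lie below the WT libraries.

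The levels of the 7 genes fell into 3 tiers, which FPKM allow to be compared because they are per transcript length. The lengths behind the deposited FPKM were not checked, and the order of genes within a tier depends on them. Cdkn2d stood at 290.3 ± 29.0 FPKM in WT (SD, n = 3 libraries), above 97.4% of the 11295 tested protein-coding genes. The second tier held Cdkn1a at 14.5 ± 1.48, Cdkn1b at 13.0 ± 5.29 and Cdkn2c at 13.0 ± 3.35 FPKM in WT, and these 3 did not differ beyond their spread. The lowest tier held Cdkn2b at 0, 0.277 and 0.960 FPKM in the WT libraries, Cdkn1c at 0.383 ± 0.118 FPKM, and Cdkn2a, listed at 0 in 5 of the 6 libraries. In HDAC1-cKO the order was Cdkn2d at 235.0 ± 19.5, Cdkn1a at 15.8 ± 2.51, Cdkn2c at 12.3 ± 1.33, Cdkn1b at 8.48 ± 0.535 and Cdkn1c at 0.418 ± 0.115 FPKM (SD, n = 3). There the ranges of Cdkn1a and Cdkn2c overlapped, while all 3 values of Cdkn1b lay below those of Cdkn2c. Cdkn2d alone made up 85.6 to 89.4% of the summed FPKM of the 7 genes in each of the 6 libraries. The CIP/KIP genes together made up 7.61 to 10.1% in HDAC1-cKO and 7.47 to 9.45% in WT.

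Cdkn1a encodes p21, which p53 induces after DNA damage and which is also made upon T cell activation. The gene (ENSMUSG00000023067) lies on chromosome 17 from 29090976 to 29100727 on the plus strand (GRCm38). It stood at 16.7, 13.0 and 17.8 FPKM in HDAC1-cKO replicates 1, 2 and 3 and at 15.5, 12.8 and 15.3 FPKM in WT replicates 1, 2 and 3. The groups overlapped, and the library numbered 2 was the lowest of each genotype. The log2 difference on counts was 0.13 ± 0.16 (SE, edgeR adjusted p = 0.764). Its 95% interval ran from -0.24 to 0.49, which is 0.847-fold to 1.41-fold of WT. A rise of Cdkn1a beyond 1.41-fold therefore lay outside the interval of this fit. Over 18 alternatives the log2 difference ran from 0.03 to 0.25, and the bound holds for the main fit only.

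Cdkn1a is shown with its sequence because binding of Sp-family factors to GC boxes (GGGCGG) at its start is a known route by which HDAC1 reaches this gene. RefSeq (GRCm38.p6) gives 2 starts for Cdkn1a. The windows of up to 250 bases upstream of each start, outside annotated exons, and that of Cdkn1b, are printed 5′ to 3′ on the gene's strand, with exact GC boxes of either strand in capitals. They are chr17:29090729-29090975 and chr17:29093519-29093768, both plus strand, and chr6:134920151-134920400, plus strand.
Cdkn1a, upstream start: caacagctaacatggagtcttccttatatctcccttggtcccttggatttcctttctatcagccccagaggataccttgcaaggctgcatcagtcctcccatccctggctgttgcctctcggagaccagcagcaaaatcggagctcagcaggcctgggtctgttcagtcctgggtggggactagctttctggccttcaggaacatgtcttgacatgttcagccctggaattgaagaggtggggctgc
Cdkn1a, downstream start: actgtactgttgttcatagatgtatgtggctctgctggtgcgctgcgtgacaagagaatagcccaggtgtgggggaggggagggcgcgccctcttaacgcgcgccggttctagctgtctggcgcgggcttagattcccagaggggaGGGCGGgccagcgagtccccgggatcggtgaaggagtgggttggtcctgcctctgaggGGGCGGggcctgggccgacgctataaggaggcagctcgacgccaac
Cdkn1b: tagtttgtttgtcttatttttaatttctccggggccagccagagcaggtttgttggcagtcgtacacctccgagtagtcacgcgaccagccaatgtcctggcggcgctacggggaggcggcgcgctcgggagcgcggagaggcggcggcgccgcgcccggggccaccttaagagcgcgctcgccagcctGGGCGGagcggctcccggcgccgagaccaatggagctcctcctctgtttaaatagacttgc

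The downstream Cdkn1a start had 2 GC boxes, which begin 104 and 46 bases before it, and the upstream start had 0. Cdkn1b had 1 GC box, 61 bases before its start. Windows of RefSeq were found for 6 of the 7 members (9 windows), without one for Cdkn1c. Cdkn2d and the upstream start of Cdkn2c each had 3 GC boxes and the upstream start of Cdkn2a had 2, while Cdkn2b and the downstream starts of Cdkn2a and Cdkn2c had 0. The window of Cdkn2d has 198 bases in exons annotated by GENCODE M21, and that of the upstream Cdkn2c start has all 250. The GC boxes of both windows lie in these exon bases, and neither window is printed. Of 32851 RefSeq windows of the same length, 32.7% held at least 1 GC box, 16.7% at least 2 and 8.5% at least 3. The other motifs searched on both strands were found in 0 of the 9 windows. They were the E2F motifs TTTCGCGC and TTTGGCGC, present in 0.3 and 0.4% of all windows, the E box CACGTG in 6.0%, the TATA box TATAAA in 12.4% and the forkhead motif GTAAACA in 3.2%. No 2 of these motifs contain one another. A match is a description of the letters and not a measured binding site.

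Cdkn1b encodes p27, which keeps resting T cells from dividing and is mainly lowered by protein breakdown when they are activated. The gene (ENSMUSG00000003031) lies on chromosome 6 from 134920401 to 134925513 on the plus strand. Its level was 7.89, 8.93 and 8.63 FPKM in HDAC1-cKO replicates 1, 2 and 3 and 7.01, 16.9 and 15.2 FPKM in WT replicates 1, 2 and 3. WT replicate 1 was the lowest of all 6 libraries, and the other 2 WT libraries lay above every HDAC1-cKO library. The log2 difference was -0.61 ± 0.29 (SE, edgeR adjusted p = 0.341), with a 95% interval from -1.29 to 0.06. Without WT replicate 1 it was -0.92 (edgeR adjusted p = 0.0541, the lowest over 18 alternatives, which ran up to 0.721). Without WT replicate 2 it was -0.39.

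Cdkn1b varied more among WT libraries (SD 5.29 FPKM, n = 3) than among HDAC1-cKO libraries (SD 0.535 FPKM, n = 3), and more than Cdkn2c (SD 3.35) or Cdkn1a (SD 1.48) did in WT. The noncoding RNA gene Lockd, which lies 3579 bases from Cdkn1b on the same strand and is known to hold an enhancer of it, was also lowest in WT replicate 1, by a smaller margin. Lockd stood at 7.89 FPKM in WT replicate 1 and at 9.59 and 9.86 FPKM in the other 2 WT libraries, with 8.22 to 11.3 FPKM in HDAC1-cKO (log2 difference 0.04 ± 0.17, SE, edgeR adjusted p = 0.945).

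Cdkn1c encodes p57 and is an imprinted gene, read from the maternal copy. It lies on chromosome 7 from 143458339 to 143461050 on the minus strand (ENSMUSG00000037664). The HDAC1-cKO libraries 1, 2 and 3 had 21, 28 and 22 counts and the WT libraries had 25, 48 and 34 counts, or 0.327 to 0.548 and 0.247 to 0.458 FPKM. The groups overlapped, and the log2 difference was 0.12 ± 0.50 (SE, edgeR adjusted p = 0.934), with an interval from 0.494-fold to 2.41-fold. The difference turned to -0.11 without HDAC1-cKO replicate 3 and to -0.12 without WT replicate 1. An antisense gene, Gm44732, covers 30.7% of the Cdkn1c exon bases and had 0 counts in every library, and the kit does not mark strand, so reads of the pair cannot be told apart.

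Within the CIP/KIP family the balance of Cdkn1a to Cdkn1b was compared inside each library, which removes the scaling between libraries. The size of each ratio depends on the gene lengths behind the deposited FPKM, which were not checked. Cdkn1a FPKM were 2.11, 1.46 and 2.06 times those of Cdkn1b in HDAC1-cKO replicates 1, 2 and 3. In WT replicates 1, 2 and 3 they were 2.21, 0.758 and 1.01 times. HDAC1-cKO replicate 2 was the lowest of its genotype. WT replicate 1 lay above all HDAC1-cKO libraries, while the other 2 WT libraries lay below them. For the test, here and for Cdkn2c and Cdkn2d, 0.1 was added to each FPKM before the log2 ratio was taken. The mean log2 ratio differed by 0.63 between genotypes (exact permutation test, two-sided, p = 0.4, where 20 splits allow no p below 0.1). It differed by 1.07 without WT replicate 1 and by 0.31 without WT replicate 2.

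Cdkn2d encodes p19, an INK4 inhibitor whose transcript is periodic in dividing cells. The gene (ENSMUSG00000096472) lies on chromosome 9 from 21288410 to 21291407 on the minus strand and has no exon overlap with another gene in GENCODE M21. It stood at 218.9, 257 and 229 FPKM in HDAC1-cKO replicates 1, 2 and 3 and at 272, 275 and 324 FPKM in WT replicates 1, 2 and 3. All 3 HDAC1-cKO libraries lay below all 3 WT libraries, as did those of 11.8% of all genes tested. The log2 difference was -0.30 ± 0.11 (SE, edgeR unadjusted p = 0.0301, adjusted p = 0.229), which is 0.812-fold of the WT level with a 95% interval from 0.677-fold to 0.975-fold. It was negative under all 18 alternatives, from -0.38 to -0.22. The adjusted p ran from 0.0327 with limma-voom, to 0.565 without WT replicate 3. Cdkn2d was the 1 member whose groups did not overlap.

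Cdkn2c encodes p18, an INK4 inhibitor known to limit division of lymphocytes. The gene (ENSMUSG00000028551) lies on chromosome 4 from 109660876 to 109667189 on the minus strand. Its level was 11.7, 13.8 and 11.3 FPKM in HDAC1-cKO replicates 1, 2 and 3 and 9.15, 14.3 and 15.4 FPKM in WT replicates 1, 2 and 3. As for Cdkn1b, WT replicate 1 was the lowest of the 6 libraries and the other 2 WT libraries the highest. The log2 difference was -0.07 ± 0.21 (SE, edgeR adjusted p = 0.906), with an interval from 0.682-fold to 1.32-fold. It was -0.28 without WT replicate 1 and turned to 0.06 without WT replicate 3.

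Cdkn2d outweighed Cdkn2c in every library. The Cdkn2d level was 18.7, 18.6 and 20.3 times that of Cdkn2c in HDAC1-cKO replicates 1, 2 and 3, and 29.7, 19.2 and 21 times in WT replicates 1, 2 and 3. The groups overlapped, with WT replicate 1 the highest of all. The mean log2 ratio of Cdkn2c to Cdkn2d was 0.25 higher in HDAC1-cKO (exact permutation test, two-sided, p = 0.2), and 0.07 higher without WT replicate 1.

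Cdkn2b and Cdkn2a lie side by side on chromosome 4, 11646 bases apart, and are known for being silent in most young tissues and rising in ageing and senescent cells. Cdkn2b (89306299 to 89311039, minus strand, ENSMUSG00000073802) had 12, 24 and 1 counts in HDAC1-cKO replicates 1, 2 and 3 and 20, 0 and 51 counts in WT replicates 1, 2 and 3. The libraries of 1 genotype differed beyond counting error: exact Poisson 95% intervals were 0.411 to 0.955 and 0.00124 to 0.273 CPM in HDAC1-cKO replicates 2 and 3. WT replicate 3 had an interval of 0.9995 to 1.77 CPM. The 0 counts of WT replicate 2 allow up to 3 counts, or 0.0545 CPM. This limit is one-sided, while the exact intervals are two-sided. Reads carry no molecular identifiers, so these intervals cover counting error only. The log2 difference was -0.64 ± 1.35 (SE, edgeR adjusted p = 0.870). It ranged from -1.38 without HDAC1-cKO replicate 2 to 0.88 without WT replicate 3, so no direction can be given.

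Cdkn2a (89274471 to 89294653, minus strand, ENSMUSG00000044303) had 5 counts in WT replicate 1 and 0 in the other 5 libraries. Its count covers both the p16 and the Arf transcript, which share exons. The same one-sided limit of 3 counts is 0.0802 to 0.147 CPM in the HDAC1-cKO libraries and 0.0545 and 0.079 CPM in WT replicates 2 and 3. The 5 counts of WT replicate 1 make 0.0975 CPM (exact Poisson 95% interval 0.0317 to 0.228). Expression of Cdkn2a above these limits was not detected in HDAC1-cKO.

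**Figure D2:**
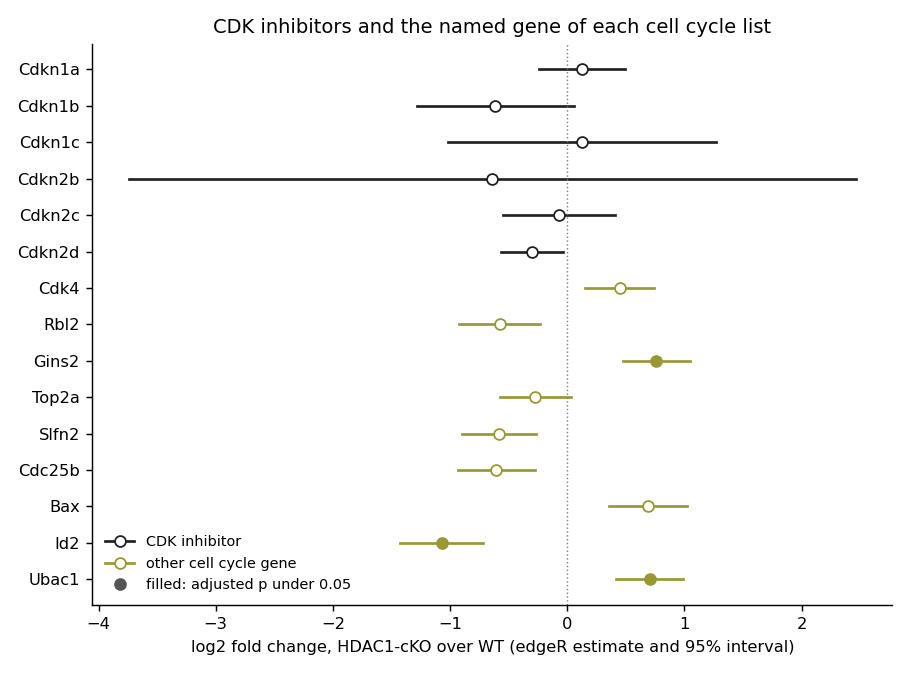
Log2 fold change of HDAC1-cKO over WT (x axis) for the 6 tested CDK inhibitor genes and for the named gene of each cell cycle list, as edgeR estimates with 95% intervals (n = 3 libraries per genotype). Filled points passed an adjusted p under 0.05 and the 6 CDK inhibitors did not; the interval of Cdkn2b spans -3.74 to 2.47.

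Of the kinases and cyclins that these proteins bind, Cdk4 had the lowest p. Of 15 tested cyclin and CDK genes 0 were higher and 0 lower by edgeR (1 and 1 at an unadjusted p under 0.05), and the median log2 difference was -0.01. Limma on FPKM also called 0, while DESeq2 and limma-voom each called 1, Cdk4, as higher. Without HDAC1-cKO replicate 2, edgeR called 1, Ccnd2, as lower. That fit called 258 of all genes higher and 368 lower, against 152 and 154 with every library. Leaving out any other library gave 15 to 26 higher and 10 to 23 lower. Cdk4, the kinase that INK4 proteins inhibit, stood at 194, 175 and 191 FPKM in HDAC1-cKO replicates 1, 2 and 3 and at 160, 131 and 120.0 FPKM in WT replicates 1, 2 and 3. All HDAC1-cKO libraries lay above all WT libraries, as did those of 12.7% of all genes tested. The log2 difference was 0.45 ± 0.13 (SE, edgeR adjusted p = 0.124, with 0.0126 to 0.372 over 18 alternatives). Its relative Cdk6 stood at 31.1 ± 2.13 FPKM in HDAC1-cKO and 27.8 ± 2.39 FPKM in WT (SD, n = 3).

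The INK4 genes were then set beside Cdk4 and Cdk6 as sums of FPKM, a description chosen after the values of Cdk4 and Cdkn2d were seen and given no p. The INK4 sum was 231, 271 and 241 FPKM in HDAC1-cKO replicates 1, 2 and 3 and 282, 289 and 340.1 FPKM in WT replicates 1, 2 and 3. The sum of Cdk4 and Cdk6 was 225, 204 and 224 FPKM in HDAC1-cKO and 187, 162 and 146 FPKM in WT, in the same order. The ratio of INK4 to kinase transcripts was thus 1.03, 1.33 and 1.08 in HDAC1-cKO and 1.51, 1.79 and 2.32 in WT. That the groups do not overlap here restates the values of Cdkn2d and Cdk4, which carry most of these sums and did not pass the edgeR threshold. These are ratios of transcripts, and proteins were not measured.

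**Figure D3:**
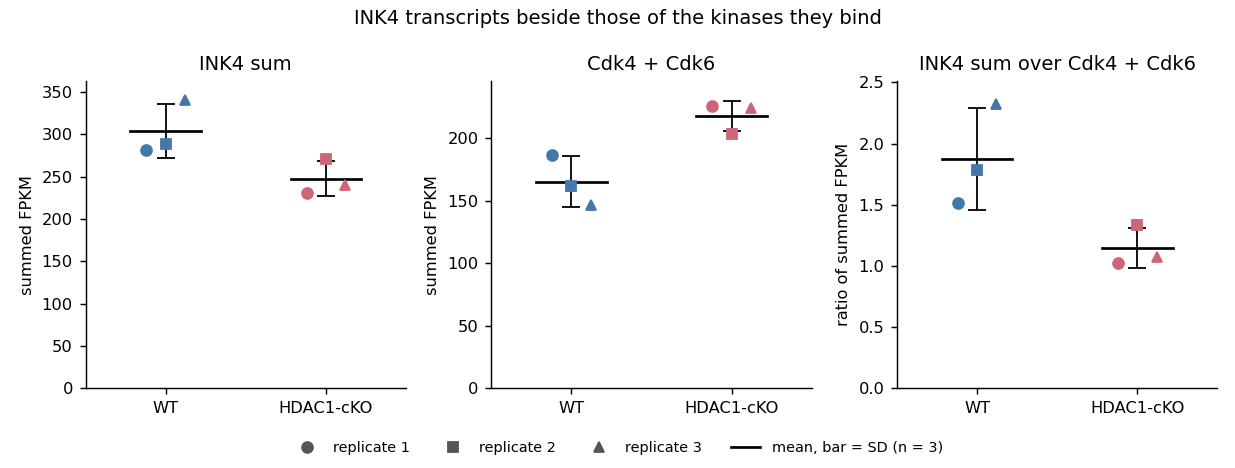
Summed FPKM of the 4 INK4 genes, of Cdk4 and Cdk6, and the ratio of both sums (y axes, from 0) in WT and HDAC1-cKO libraries. Points are libraries, with shape for the replicate number. Lines are means and bars SD (n = 3). The ratio is 1.03 to 1.33 in HDAC1-cKO and 1.51 to 2.32 in WT.

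Downstream of the kinases, the retinoblastoma relatives, E2F factors and their DREAM partners had 0 of 19 tested members called by edgeR in either direction (3 higher and 2 lower at an unadjusted p under 0.05), with a median of 0.02. Limma on FPKM called 0, DESeq2 called 2 higher and 2 lower, and limma-voom 3 higher and 1 lower. Without HDAC1-cKO replicate 2, where edgeR called 258 of all genes higher, it called 1 of this list, Mybl2, as higher. Rbl2, the p130 protein of resting cells, stood at 13.0 to 15.3 FPKM in HDAC1-cKO and 17.1 to 24.1 FPKM in WT (log2 difference -0.58 ± 0.15, SE, edgeR adjusted p = 0.0949, with 0.0107 to 0.299 over 18 alternatives). Among 19 E2F target and S phase genes edgeR called 1 higher and 0 lower (4 and 0 at an unadjusted p under 0.05), and the median was 0.14. Limma on FPKM called the same gene, and DESeq2 and limma-voom each called 2 higher, Mcm2 and Gins2. The gene called by edgeR was Gins2, a subunit of the replicative helicase, at 34.3, 33.2 and 31.9 FPKM in HDAC1-cKO replicates 1, 2 and 3 against 22.2, 17.2 and 19.6 FPKM in WT replicates 1, 2 and 3. Its log2 fold change was 0.76 ± 0.12 (SE, edgeR adjusted p = 0.031). The call of Gins2 was lost when HDAC1-cKO replicate 1 or 3 or any WT library was left out, with an edgeR adjusted p of up to 0.132. It was also lost with the replicate number as a block (edgeR adjusted p = 0.0701). Of 12 mitosis genes 0 were called by edgeR, DESeq2, limma-voom or limma on FPKM, and 0 had an unadjusted p under 0.05 in either direction by any of these. The median of the mitosis list was -0.19, and Top2a, its gene with the lowest p, differed by -0.27 ± 0.13 (SE, edgeR adjusted p = 0.355). For all genes tested the median was -0.00 on the same scale.

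Genes that control the inhibitors were taken in 3 lists, of the p53 pathway, of transcriptional regulators and of protein turnover. In the p53 pathway, which drives Cdkn1a, 0 of 16 tested genes were called by edgeR (2 higher and 2 lower at an unadjusted p under 0.05) and the median was 0.06. DESeq2 and limma-voom each called 2 higher and 1 lower, and limma on FPKM 1 higher. Without HDAC1-cKO replicate 2, where edgeR called 258 of all genes higher, it called 1 of this list, Bax, as higher. Trp53 itself had a log2 difference of 0.09 ± 0.11 (SE), with an edgeR adjusted p of 0.748. Bax, a death effector induced by p53, stood at 163 to 223 FPKM in HDAC1-cKO and 112 to 117 FPKM in WT (log2 difference 0.69 ± 0.14, SE, edgeR adjusted p = 0.0579), and passed the threshold in 9 of 18 alternatives (edgeR, DESeq2 or limma adjusted p from 0.000782 to 0.206). Of 22 tested transcriptional regulators edgeR called 0 higher and 1 lower (1 and 2 at an unadjusted p under 0.05), with a median of -0.07. Limma on FPKM also called 0 higher and 1 lower, DESeq2 1 and 1, and limma-voom 1 and 3. The gene that DESeq2 and limma-voom called higher was Rnf2. EdgeR also called Rnf2 without HDAC1-cKO replicate 2, with 2 lower, where it called 258 of all genes higher and 368 lower. The gene lower by edgeR was Id2, an inhibitor of the E proteins that activate Cdkn1a, at 200.1, 141 and 200.2 FPKM in HDAC1-cKO replicates 1, 2 and 3 and 419, 352 and 371 FPKM in WT replicates 1, 2 and 3 (log2 fold change -1.07 ± 0.16, SE, edgeR adjusted p = 0.024).

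Among 11 genes for the breakdown of the CIP/KIP proteins edgeR, DESeq2, limma-voom and limma on FPKM each called 1 higher, Ubac1, and 0 lower, with an edgeR median of 0.08. Ubac1, a subunit of the ubiquitin ligase that marks p27 in G1, stood at 27.5, 24.4 and 26.5 FPKM in HDAC1-cKO replicates 1, 2 and 3 and 15.8, 17.2 and 15.2 FPKM in WT replicates 1, 2 and 3. Its log2 fold change was 0.70 ± 0.13 (SE), with an edgeR adjusted p of 0.0354. Skp2, which selects phosphorylated p27 for breakdown, differed by 0.18 ± 0.22 (SE, edgeR adjusted p = 0.757). The calls of Id2 and Ubac1 were likewise lost when HDAC1-cKO replicate 1 or 3 or any WT library was left out (edgeR adjusted p up to 0.104 and 0.158), and that of Ubac1 also with offsets for GC content (edgeR adjusted p = 0.0523).

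Of 12 tested brakes outside the CDK inhibitor families, edgeR called 0 higher and 0 lower (0 and 2 at an unadjusted p under 0.05). The median was -0.26, and 10 of the 12 had negative differences, beside 7802 of the 15519 genes tested. DESeq2 and limma-voom each called 2, Btg2 and Slfn2, as lower, and limma on FPKM 0. Without HDAC1-cKO replicate 2, where edgeR called 368 of all genes lower, it called these 2 as lower. Slfn2, a quiescence factor of T cells, stood at 161 to 213 FPKM in HDAC1-cKO and 243 to 302 FPKM in WT (log2 difference -0.58 ± 0.14, SE, edgeR adjusted p = 0.0754, with 0.0043 to 0.248 over 18 alternatives). Of the 3 CDC25 phosphatases, which activate CDKs, 0 were called by edgeR (0 higher and 1 lower at an unadjusted p under 0.05), 0 by limma on FPKM, and 1, Cdc25b, as lower by DESeq2 and limma-voom. Cdc25b stood at 39.0 to 43.98 FPKM in HDAC1-cKO and 52.3 to 74.5 FPKM in WT (log2 difference -0.60 ± 0.14, SE, edgeR adjusted p = 0.0724, with 0.00409 to 0.239 over 18 alternatives).

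The genes whose log2 CPM followed each member most closely over the 6 libraries were chosen by Pearson r among 8491 or 8492 genes with a mean of at least 5 CPM. They are a description, since with 6 libraries 20 to 180 genes had an r above 0.9 with each member. Cdkn1b was followed by Arhgap27 and by Hexim1, an inhibitor of the elongation kinase P-TEFb (r = 0.997 and 0.992). Cdkn2d was followed by Trib1 (r = 0.977), which had a log2 difference of -0.72 (edgeR adjusted p = 0.133). Cdkn1a was followed by Ufd1 and Ercc8 (r = 0.992 and 0.987), and Cdkn2c by Zfyve27 and Stat2 (r = 0.990 and 0.987). Cdkn1c was followed by Kdm1a and Aagab (r = 0.975 and 0.970), and Cdkn2b by Arpc4 and Ubap2 (r = 0.985 and 0.982). The number of genes with an r above 0.9 was highest for Cdkn2d, at 180.

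**Figure D4:**
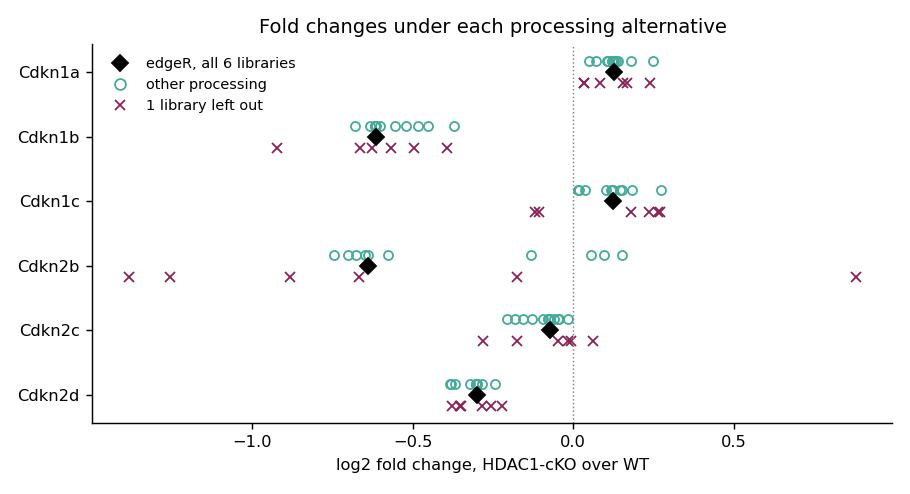
Log2 fold change of each tested CDK inhibitor gene (x axis) as estimated by edgeR with all libraries (diamonds), under other processing (circles) and with 1 library left out (crosses). Cdkn1a stays above 0 and Cdkn1b and Cdkn2d below 0 in all 18 alternatives, while Cdkn2b runs from -1.38 to 0.88.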

How the data were processed

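The authors deposited read counts per gene, not normalized, and FPKM for the same genes in 6 libraries of Smart-seq2 cDNA with 50-base reads. Per the submitters' processing notes STAR 2.5.2b, Picard 2.19.2, R 3.6.1 and DESeq2 1.24.0 were used. The sources used here do not give the read counter, the strand setting or the treatment of multiply mapped reads. Of the 55536 genes, 55450 had the coordinates of GENCODE M21 (GRCm38). Over 10896 genes with at least 50 counts in every library, the FPKM equalled counts times a constant per gene divided by the DESeq2 size factor of the library, so they are comparable between libraries.

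Counts were filtered with filterByExpr, scaled by TMM and tested with edgeR 4.0.16 (quasi-likelihood, robust, two-sided, R 4.3.3) with genotype as the term, over 15519 genes that held at least 99.92% of each library's counts. The F statistic and the fold change gave each SE and 95% interval. DESeq2 1.42.0 and limma 3.58.1 were alternatives, among others. Adjusted p values are Benjamini-Hochberg over all genes tested. CPM used TMM-scaled totals. The pipeline was tested on simulated data. No library repeated another: a comparison of counts in the 15 possible pairs exceeded sampling noise, with a chi-square of 12.0 to 158.5 for each degree of freedom. Promoter windows came from RefSeq (GRCm38.p6). Figures were drawn with matplotlib 3.10.9.

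The members and lists were chosen with earlier results of these data known. In each list the called genes (up to 4 by lowest p), or else the gene of lowest p, were to be named, and for each tested member the 2 genes most like it (1 of those of Cdkn2d and 1 marker are not reported here); Trp53, Skp2, Cdk6, Btg2, Ccnd2, Mybl2, Mcm2, Rnf2, Lockd, other neighbours and the markers were named beside this rule, after their values were seen. The Gm, Rik, clone and receptor-segment symbols were left out of the likeness search.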

Additional observations from a re-analysis of the deposited data

How the results depend on the processing

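The count of CDK inhibitor genes called stayed at 0 higher and 0 lower under all 18 alternatives, with the exception of limma-voom with sample weights, which called 1 lower (Cdkn2d). Numbers over all genes moved more. Against 152 higher and 154 lower, DESeq2 called 707 and 667, limma-voom 770 and 819, GC offsets gave 257 higher, and no low-count filter gave 243 lower. Without 1 library the number ran from 15 to 258 higher and from 10 to 368 lower, highest without HDAC1-cKO replicate 2. Whether the replicate numbers pair the libraries of both genotypes is not said in the labels. In the deposited column names, the HDAC1-cKO and WT libraries of each replicate number carry consecutive identifiers, and what these stand for is not said. The deviations of same-numbered libraries correlated at 0.024, -0.002 and -0.042, and 2 of the 3 HDAC1-cKO libraries correlated best with another number. These values, from 3 libraries per genotype, cannot exclude a pairing. With the replicate block 34 were higher and 31 lower, and with the block and GC offsets 100 and 99, with 0 CDK inhibitor genes in each. Gins2 and Ubac1 then had edgeR adjusted p values of 0.0701 and 0.1 with the block, and Ubac1 one of 0.101 with both. With the block the difference of the Cdkn1a to Cdkn1b log2 ratio was 0.632 and that of Cdkn2c to Cdkn2d 0.254. The difference of Cdkn2b turned to 0.151 with limma-voom, 0.097 with the block and 0.055 with the block and GC offsets. Without 1 library it ran from -1.383 to 0.88 for Cdkn2b, from -0.119 to 0.269 for Cdkn1c and from -0.28 to 0.062 for Cdkn2c. The cause of these changes was not tested. Cdkn2a, Cdkn2b and Cdkn1c rest on at most 51 counts in a library.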

Other observations

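Of the other genes within 20000 bases of a CDK inhibitor gene, Kri1, a ribosome assembly gene 441 bases from Cdkn2d, had a log2 difference of -0.19 ± 0.21 (SE), with an edgeR adjusted p of 0.737. Atg4d, an autophagy protease gene beside it, differed by -0.00 (edgeR adjusted p = 0.997), and Faf1, near Cdkn2c, by 0.14 ± 0.13 (edgeR adjusted p = 0.667). Trp53cor1, the noncoding RNA lincRNA-p21 at 11797 bases from Cdkn1a, had 0, 3 and 2 counts in HDAC1-cKO replicates 1, 2 and 3 against 7, 0 and 2 in WT and was too low to be tested.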
